A study of Mus musculus with 16 samples.

Results

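A set of 10 genes that mark the supporting cells of the organ of Corti (OC) or the prosensory cells they come from were followed: Sox2, Sox9, Prox1, Fgfr3, Lgr5, Lgr6, Gfap, Slc1a3, S100a1 and Cdkn1b. Each was read from an Affymetrix MoGene 1.0 probeset that the platform table pairs with that symbol alone, and where a gene had several, the probeset with the highest mean over the 16 arrays stood for it. All 10 were on the array, among 19937 genes with such a probeset, and only Cdkn1b had a second one. The study concerns the miR-183 cluster (miR-183, miR-96 and miR-182, microRNAs made by hair cells). It asked whether misexpression of the cluster in supporting cells lowers genes these cells need. Sox2 was among the genes whose transcript it tested in reporter assays. There the paper found lower luciferase activity for the Sox2 reporter with miR-182 in a cultured cell line.

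The 16 arrays fall into 4 groups by sample title: 5 of Tg/Tg and 5 of wild-type (WT) OC at postnatal day 5 (P5), and 3 of Tg/Tg and 3 of WT cochlea at P18. Tg/Tg mice were homozygous for a transgene that carries the miR-183 cluster behind a human GFAP promoter, came from 1 founder line (Tg1MDW) on FVB/NCrl, and were compared with WT littermates. By in situ hybridisation the paper found miR-182 in supporting, spiral limbus and Schwann cells of Tg/Tg mice at P18. At P5 it saw no clear difference between the genotypes by that method, so misexpression in supporting cells was not shown there. On its arrays the cluster's probesets were among the most raised at P5 too, which does not tell the cells. The P5 samples were microdissected OC and the P18 samples whole cochleae, so that age and tissue change together and their parts in any difference cannot be told apart. The titles call the arrays of a group biological replicates without saying whether an array holds 1 animal or a pool. The p-values measure the spread between these samples. In the main fit the 4 groups share 1 estimate of that spread for each probeset. Intervals and p-values at P18 therefore also rest on the scatter of the P5 arrays. In bulk tissue, fewer cells of a type and less RNA per cell cannot be told apart. The sample characteristics go against the titles for tissue and age on 12 of 16 samples and for genotype on 8. The titles were followed, and the transgene's own probesets went with them: Mir96 read 7.77 to 8.64 on all Tg/Tg arrays and 4.13 to 5.10 on all WT arrays, Mir182 7.77 to 8.64 against 3.83 to 5.46, and Mir183 5.97 to 7.06 against 2.99 to 3.57. Symbols follow the platform table, and the paper has the names Mir96 and Mir182 exchanged between their probesets. All values are the deposited normalised signals on the log2 scale, where a difference of 1 is a doubling, and levels of different probesets are not compared with each other.

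The OC is a strip of sensory hair cells held by supporting cells (pillar, Deiters', Hensen's and inner border cells), and both arise from one prosensory domain. The transcription factor Sox2 is required to set up that domain and stays on in supporting cells, with Notch signals from the hair cells keeping their neighbours from becoming hair cells. Cdkn1b, the cyclin-dependent kinase inhibitor p27Kip1, takes prosensory cells out of the cell cycle, Fgfr3 steers the pillar and Deiters' cells, and Lgr5 marks supporting cells of the young cochlea that can still divide or become hair cells. Supporting cells share genes with glia, among them Gfap and the glutamate transporter Slc1a3.

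The 3 microRNAs that the transgene adds are shown because their seed, bases 2 to 8 from the 5′ end, given here in capitals, is the stretch that pairs with a target transcript. Their mature sequences are those of RefSeq (GRCm38.p6, minus strand of chromosome 6).
miR-183-5p: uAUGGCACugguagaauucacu
miR-96-5p: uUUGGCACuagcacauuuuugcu
miR-182-5p: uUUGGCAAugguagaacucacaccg
The seeds of miR-96-5p and miR-182-5p share 6 of 7 bases and differ at base 8. Those of miR-183-5p and miR-96-5p share 6 of 7 and differ at base 2, and those of miR-183-5p and miR-182-5p share 5 of 7. They lie at chr6:30169711-30169732 (miR-183-5p), chr6:30169506-30169528 (miR-96-5p) and chr6:30165962-30165986 (miR-182-5p). Target sites in the members' transcripts were not analysed here.

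None of the 10 genes differed between Tg/Tg and WT at either age past an adjusted p of 0.05 (limma, fitted on all 34760 probesets). At P5 0 of 10 were called, against a background of 0.610% of probesets, and at P18 0 of 10, against 0.443%. At an unadjusted p under 0.05 stood 2 members at P5 (Fgfr3 and Cdkn1b, both lower in Tg/Tg), against 16.4% of probesets, and 2 at P18 (Sox2 and Lgr5, both higher), against 8.77%. The 10 log2 differences ran from -0.31 to 0.19 at P5, with a median of -0.02 beside -0.01 over all probesets. They ran from -0.18 to 0.35 at P18, with a median of 0.10 beside -0.02. A missed threshold does not show equal levels. The 95% intervals reached a 1.54-fold difference at P5, for Prox1, and a 1.56-fold difference at P18, for Lgr5, and differences larger than these lay outside the intervals of all 10. Tg/Tg and WT arrays overlapped for all 10 members at P5, where 1.67% of probesets did not overlap. At P18, with 3 arrays a group, they did not overlap for 6 of 10 members, 5 higher in Tg/Tg (Sox2, Sox9, Prox1, Lgr5, Slc1a3) and 1 lower (Fgfr3), while 27.6% of all probesets did not overlap.

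**Figure D1:**
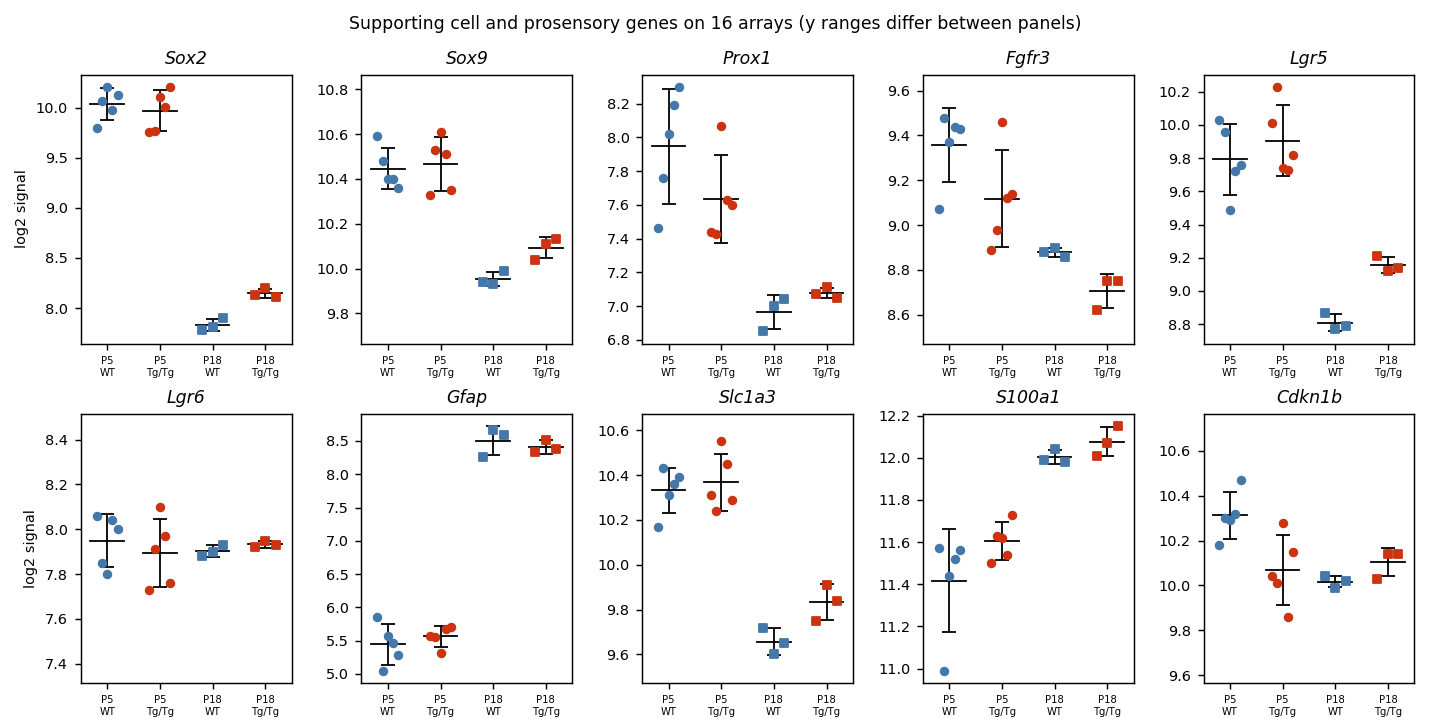
Log2 signal (y axis) of the 10 genes on each of the 16 arrays, by group (x axis; blue WT, red Tg/Tg, circles P5-OC, squares P18-cochlea, points in replicate order), with the mean as a bar and the SD as whiskers. The genotypes overlap in all 10 panels at P5, and the ages stand apart in WT in every panel except Lgr6.

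Among the transcription factors, Sox2 at P5 read 9.76, 9.77, 10.11, 10.01 and 10.21 on Tg/Tg replicates 1 to 5 and 9.80, 10.07, 10.21, 9.98 and 10.13 on the WT replicates. The ranges nearly coincide, and both genotypes reached the same highest value. The log2 difference was -0.06 (SE 0.096, adjusted p = 0.76), with a 95% interval of -0.27 to 0.14, so that the lowest Sox2 transcript level in Tg/Tg that the interval holds was a 1.20-fold decrease. At P18 Sox2 read 8.13, 8.20 and 8.11 in Tg/Tg and 7.78, 7.81 and 7.90 in WT. Every Tg/Tg array stood above every WT array, by a mean of 0.32 (SE 0.124, interval 0.05 to 0.58, adjusted p = 0.44). Across the 4 groups the order was P5 WT (10.04 ± 0.155, SD, n = 5), P5 Tg/Tg (9.97 ± 0.202, n = 5), P18 Tg/Tg (8.15 ± 0.048, n = 3) and P18 WT (7.83 ± 0.064, n = 3). Neither neighbouring pair of one age passed the test, while the step between the ages did in WT.

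Prox1, a homeodomain factor of Deiters' and pillar cells, had the widest spread at P5. Its Tg/Tg arrays read 7.44, 7.43, 8.07, 7.63 and 7.60, and its WT arrays 7.46, 7.76, 8.02, 8.19 and 8.30. Replicate 3 of Tg/Tg lay among the WT arrays and replicate 1 of WT among the Tg/Tg arrays. The mean difference was -0.31 (SE 0.148, interval -0.62 to 0.003, adjusted p = 0.31). At P18 Tg/Tg arrays read 7.07, 7.11 and 7.05 and WT arrays from 6.85 to 7.04, 0.11 apart (interval -0.29 to 0.52, adjusted p = 0.94).

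Sox9, a factor of the early otic epithelium that supporting cells retain, lay between 10.33 and 10.61 on Tg/Tg arrays at P5 and between 10.36 and 10.59 on WT arrays. It was the member with the smallest difference there, 0.02 (SE 0.068, interval -0.12 to 0.17, adjusted p = 0.89). At P18 it ran from 10.04 to 10.13 in Tg/Tg and from 9.93 to 9.99 in WT, a difference of 0.14 (interval -0.04 to 0.33, adjusted p = 0.72).

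Of the receptors, Fgfr3 at P5 read 8.89, 8.98, 9.46, 9.12 and 9.14 in Tg/Tg and 9.07, 9.48, 9.37, 9.44 and 9.43 in WT. Again Tg/Tg replicate 3 and WT replicate 1 were the arrays that crossed over. Fgfr3 was 0.24 lower in Tg/Tg (SE 0.101, interval -0.46 to -0.02, adjusted p = 0.27). At P18 its Tg/Tg arrays (8.62, 8.75 and 8.75) all lay below the WT arrays (8.88, 8.90 and 8.86), with a difference of -0.18 (interval -0.45 to 0.10, adjusted p = 0.80). Fgfr3 was the one receptor of the 3 whose difference was negative at both ages.

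Lgr5, a receptor for R-spondins that strengthens Wnt signalling, read 10.01, 10.23, 9.74, 9.73 and 9.82 in Tg/Tg and 10.03, 9.96, 9.49, 9.72 and 9.76 in WT at P5. The genotypes overlapped (difference 0.11, interval -0.12 to 0.35, adjusted p = 0.61). At P18 they did not: Lgr5 read 9.21, 9.12 and 9.14 in Tg/Tg and 8.87, 8.77 and 8.79 in WT. This gap of 0.35 (SE 0.140, interval 0.05 to 0.65, adjusted p = 0.47) was the widest between the genotypes among the members at P18. Its relative Lgr6 spread at P5 from 7.73 to 8.10 (Tg/Tg) and from 7.80 to 8.06 (WT). At P18 it spread from 7.92 to 7.95 (Tg/Tg) and from 7.88 to 7.93 (WT). Lgr6 had differences of -0.06 (interval -0.22 to 0.11) and 0.03 (interval -0.18 to 0.25).

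Gfap encodes the astroglial intermediate filament whose human promoter drives the transgene. At P5 it lay at 5.57, 5.55, 5.32, 5.67 and 5.71 in Tg/Tg and at 5.86, 5.05, 5.57, 5.47 and 5.28 in WT, little above the lower quartile of all probesets on those arrays (4.82 to 5.05). Its P5 difference was 0.12 (interval -0.16 to 0.40, adjusted p = 0.66). At P18 Gfap read 8.33, 8.52 and 8.38 in Tg/Tg and 8.26, 8.67 and 8.59 in WT, and differed by -0.10 (interval -0.46 to 0.26, adjusted p = 0.94). Slc1a3, which clears glutamate around inner hair cells, ranged at P5 from 10.24 to 10.55 (Tg/Tg) and from 10.17 to 10.43 (WT). At P18 it ranged from 9.75 to 9.91 and from 9.60 to 9.72, and the differences were 0.03 (interval -0.12 to 0.19) and 0.18 (interval -0.02 to 0.38, adjusted p = 0.64).

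The calcium-binding protein gene S100a1 read 11.50, 11.63, 11.62, 11.54 and 11.73 in Tg/Tg and 11.57, 10.99, 11.44, 11.52 and 11.56 in WT at P5. WT replicate 2 stood well below the other 9 arrays. The difference was 0.19 with it (interval -0.02 to 0.40, adjusted p = 0.34) and 0.08 without it (adjusted p = 0.546). At P18 S100a1 lay between 12.01 and 12.15 in Tg/Tg and between 11.98 and 12.04 in WT.

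Cdkn1b had the smallest adjusted p among the members at P5. It read 10.04, 10.01, 10.28, 9.86 and 10.15 in Tg/Tg and 10.18, 10.30, 10.29, 10.32 and 10.47 in WT, with Tg/Tg replicate 3 within the WT range. It was 0.24 lower in Tg/Tg (SE 0.078, interval -0.41 to -0.08, adjusted p = 0.19), a 1.18-fold difference. At P18 Tg/Tg arrays read 10.03, 10.14 and 10.14 and WT arrays 10.04, 9.99 and 10.02, with a difference of 0.09 (interval -0.12 to 0.31). The second Cdkn1b probeset differed by -0.17 at P5 (interval -0.51 to 0.17) and 0.31 at P18 (interval -0.13 to 0.75), neither called.

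**Figure D2:**
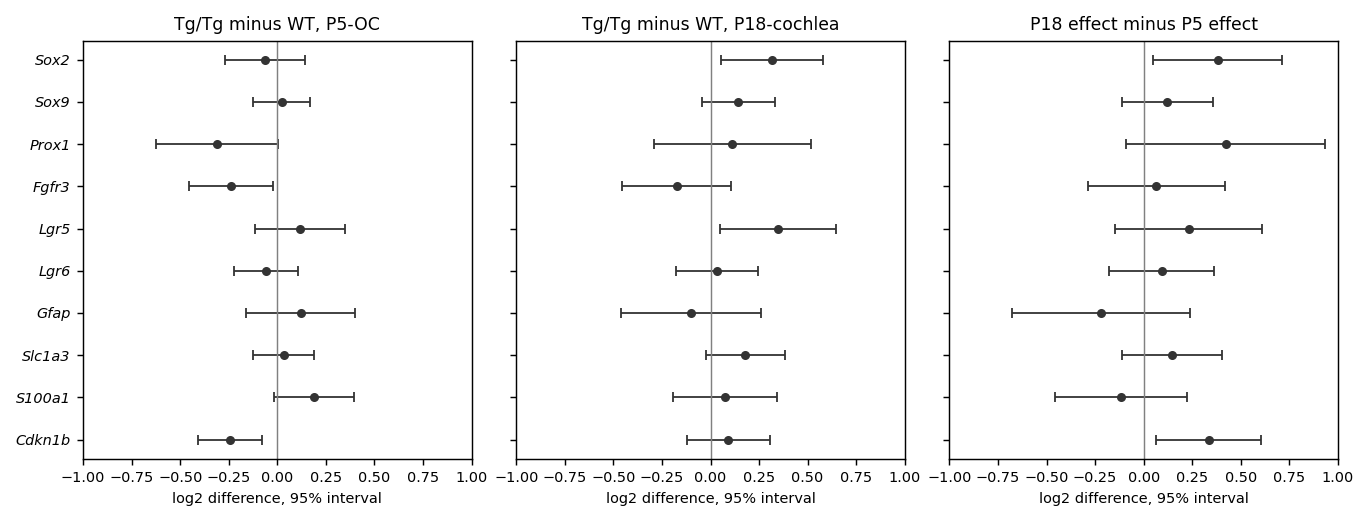
Log2 differences (x axis) with 95% intervals for each of the 10 genes: Tg/Tg minus WT at P5 (left) and P18 (middle), and the P18 effect minus the P5 effect (right). Intervals leave 0 out for Fgfr3 and Cdkn1b at P5, Sox2 and Lgr5 at P18, and Sox2 and Cdkn1b in the change of effect, and no member passed the adjusted threshold in any panel.

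The lack of a call at P5 turned on 1 array for Fgfr3 and Cdkn1b. Without Tg/Tg replicate 3, Fgfr3 (-0.33, adjusted p = 0.036) and Cdkn1b (-0.30, adjusted p = 0.0279) passed, 2 of 10 members against 8.36% of probesets, and Prox1 stood at -0.42 (adjusted p = 0.0675). Weighting arrays by their residual spread (limma arrayWeights, which gave that array the lowest weight, 0.32) called 3 of 10 at P5, all lower in Tg/Tg: Prox1 (-0.50), Fgfr3 (-0.33) and Cdkn1b (-0.30), against 4.93% of probesets. The same weights called 2 of 10 at P18, both higher: Sox2 (0.32, adjusted p = 0.0302) and Lgr5 (0.345, adjusted p = 0.0284), against 6.27%. A fit of the P18 arrays alone called 1 of 10, Lgr5 (adjusted p = 0.0496), against 1.37%. The SE of Lgr5 was 0.055 in that fit and 0.140 in the main fit, and that of Sox2 at P18 was 0.058 and 0.124. In no fit was Sox2 called at P5, where its adjusted p ran from 0.449 to 0.971.

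Whether the genotype effect changed between the ages was tested directly. None of 10 members was called (limma), against 0.596% of probesets. At an unadjusted p under 0.05 stood 2, Sox2 and Cdkn1b, against 14.3%. For Sox2 the P18 effect exceeded the P5 effect by 0.38 (SE 0.156, interval 0.05 to 0.71, adjusted p = 0.29), and for Cdkn1b by 0.33 (SE 0.127, interval 0.06 to 0.60, adjusted p = 0.26). With array weights 3 of 10 were called, against 9.30% of probesets: Sox2 (0.43), Prox1 (0.605) and Cdkn1b (0.406), each more positive at P18.

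Y-linked signal was uneven between the P5 groups. Averaged over 3 genes of the Y chromosome (Kdm5d, Uty, Eif2s3y), the signal was high on 1 Tg/Tg and 4 WT arrays at P5 (8.61 to 8.96). It was low on 4 Tg/Tg arrays and 1 WT array (3.90 to 4.06). On all P18 arrays it lay between these levels, at 7.65 to 7.66 in Tg/Tg and 7.22 to 7.34 in WT. Whether P18 arrays mix animals of both sexes, or share material within a group, is not stated. The spread within the P18 groups may therefore not be that between animals. With that average as a covariate the P5 differences were -0.06 for Sox2, -0.21 for Prox1, -0.22 for Fgfr3 and -0.21 for Cdkn1b, with no member called. Gfap (-0.03) and Sox9 (-0.08) then had the opposite sign, also not called.

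Markers of other cells moved with genotype, and their part in the members' differences was not tested. The paper's changed genes on these same arrays include all the muscle genes and some of the Schwann and granule cell genes. Counts of calls in these lists are therefore a description and no separate evidence. Of 13 Schwann cell genes 9 were lower in Tg/Tg at P5, where the mean level of the list was 8.24 to 8.55 against 9.32 to 9.55 in WT, and 2 were higher at P18 (9.12 to 9.21 against 8.83 to 8.85). Pmp2, a myelin lipid-binding protein gene, differed by -2.91 at P5 and was 1.57 higher at P18. All 11 skeletal muscle genes were higher in Tg/Tg at P18 (list mean 8.33 to 8.46, against at most 6.01 in WT), Myh1 by 3.44, and 5 of 8 cerebellar granule cell genes were lower there (6.91 to 6.95 against 7.61 to 7.65), Gabra6 by a difference of -1.87. Among 10 astrocyte markers 1 was called at P5 (Acsbg1, 0.39 higher) and 1 at P18 (Fabp7, 0.94 higher), and of 14 cartilage markers 1 was called at P18 (Col10a1, 0.69 higher). The astrocyte list averaged 8.67 to 8.72 in Tg/Tg and 8.59 to 8.62 in WT at P18, without overlap. Its 10 genes had a median difference of 0.003 there, with 5 higher and 5 lower, from -0.12 to 0.94 (Fabp7). Of single probesets 27.6% did not overlap, which is no background for the mean of a list. Neither the 22 hair cell markers nor the 11 neuronal markers held a call at either age (limma). At an unadjusted p under 0.05 stood 1 and 5 of them at P5, against 16.4% of probesets, and 3 and 1 at P18, against 8.77%. The neuronal list averaged 7.82 to 8.38 in Tg/Tg and 8.15 to 8.69 in WT at P5, where 9 of its 11 genes were on the lower side (median difference -0.34), and 8.67 to 8.70 against 8.77 to 8.81 at P18, where the groups did not overlap. The hair cell list averaged 7.37 to 7.67 in Tg/Tg and 7.33 to 7.64 in WT at P5, and 6.68 to 6.75 and 6.74 to 6.77 at P18.

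**Figure D3:**
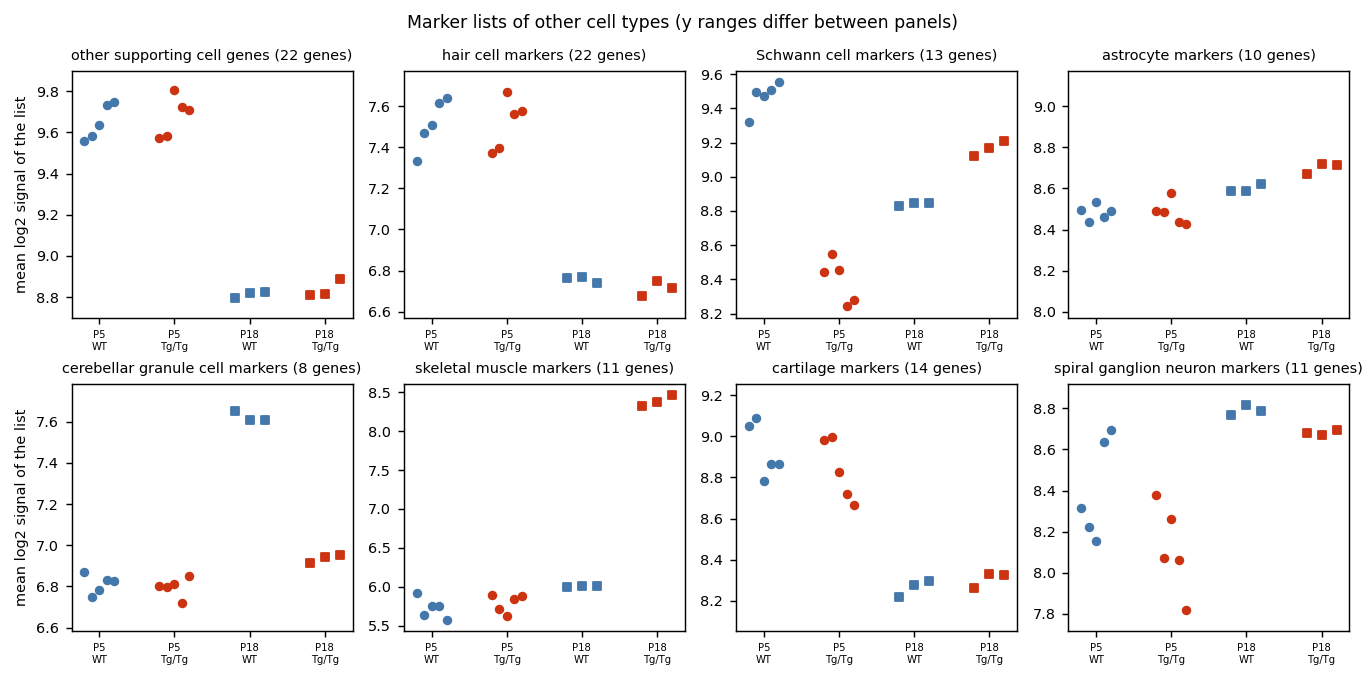
Mean log2 signal (y axis) of 8 marker lists on each array, by group (x axis; blue WT, red Tg/Tg, circles P5-OC, squares P18-cochlea, points in replicate order). Schwann cell genes part the genotypes at P5 and at P18 in opposite directions. Muscle, granule cell, astrocyte and neuronal lists part them at P18, the astrocyte list with a median difference of 0.003 over its genes. Of single probesets 27.6% parted them there, which is no background for list means. The other supporting cell genes and the hair cell markers overlap between the genotypes at P5.

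Genes that work with the members or are related to them were counted in the same fits. Over 10 lists of pathway partners and relatives, 128 further genes were measured. At P5 0 of them were called (limma). At an unadjusted p under 0.05 stood 18, 9 in each direction, against 16.4% of all probesets. At P18 1 was called, with 7 at an unadjusted p under 0.05, against 8.77% of all probesets. The called gene was Fabp7, the brain lipid-binding protein gene of radial glia, which rose by 0.94 (SE 0.086, adjusted p = 1.3e-05). Its Tg/Tg arrays read 10.69 to 10.71 and its WT arrays 9.71 to 9.78. At P5 it had differed by 0.12 (adjusted p = 0.39), and its change of effect was called (0.83, adjusted p = 0.00083).

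The other reporter-tested genes, all of the Notch pathway, were not called at either age (limma), with none at an unadjusted p under 0.05 at P5. In the paper's assays the Notch1 and Hes1 reporters were repressed, while the Jag1 reporter was not with statistical significance. Those assays read luciferase activity in cultured cells, whereas the arrays read transcript levels in bulk tissue. The missing calls are therefore no test of the reporter results. Notch1, the receptor, differed by -0.06 at P5 and -0.07 at P18. For Jag1, a Notch ligand of supporting cells, the differences were -0.10 and 0.11, and for Hes1, a Notch target, -0.002 and 0.10. All adjusted p-values of these 3 genes were 0.80 or more. The 21 Notch pathway genes had medians of -0.06 at P5 and -0.04 at P18, with none called. At an unadjusted p under 0.05 stood 1 at each age, against 16.4% of probesets at P5 and 8.77% at P18.

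By role, none of the 17 Lgr and Wnt genes was called, and Lgr4, the third R-spondin receptor, differed by -0.03 at P5 and 0.07 at P18. In the list of 16 FGF genes, 5 stood at an unadjusted p under 0.05 at P5 and 1 at P18, none called. Over all probesets the shares were 16.4% and 8.77%. Fgfr1 and Fgfr2, the other FGF receptors of the OC, differed by -0.03 and -0.10 at P5. Of the S100 family, 16 genes, S100b differed by -0.03 and 0.07, and of 19 cell cycle genes the inhibitor Cdkn1c differed by -0.02 and -0.08. The 22 other supporting cell genes had medians of 0.01 at P5 and 0.07 at P18. Of these 6 and 2 stood at an unadjusted p under 0.05, against the same shares of probesets, and none was called.

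The contrast that did move the members was that between the WT groups. From P5-OC to P18-cochlea 9 of 10 were called. Lower at P18 were 7 (Sox2, Prox1, Lgr5, Slc1a3, Sox9, Fgfr3 and Cdkn1b), against 30.2% of probesets, and higher were 2 (Gfap and S100a1), against 19.8%. With so much of the array called in both directions, the count of members is given as a description, and the sizes differ among them. Sox2 fell most, by a log2 difference of -2.21 (SE 0.111, interval -2.44 to -1.97, adjusted p = 1.9e-10), a 4.62-fold decrease. Prox1 and Lgr5 both had -0.98 (adjusted p = 0.00016 and 7.3e-06), a 1.98-fold decrease each. Slc1a3 had -0.68 (adjusted p = 6.2e-06), Sox9 -0.49 (7e-05), Fgfr3 -0.48 (0.0028) and Cdkn1b -0.30 (0.012).

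Gfap rose by 3.06 (SE 0.152, interval 2.74 to 3.38, adjusted p = 1.7e-10). No detection call was at hand, so its P5 level is not shown to lie above background and the difference may understate the rise. S100a1 rose by 0.59 (SE 0.112, adjusted p = 0.00036). Lgr6 alone was not called (-0.05, interval -0.24 to 0.14, adjusted p = 0.68), so that in WT the 2 receptors for R-spondins among the members parted: Lgr5 fell and the interval of Lgr6 allowed at most a 1.18-fold decrease. The median of the 10 was -0.49 beside -0.06 over all probesets. The call for Cdkn1b was lost with the mean of its probesets (-0.17, adjusted p = 0.213), since the second probeset differed by -0.04 (interval -0.43 to 0.36).

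**Figure D4:**
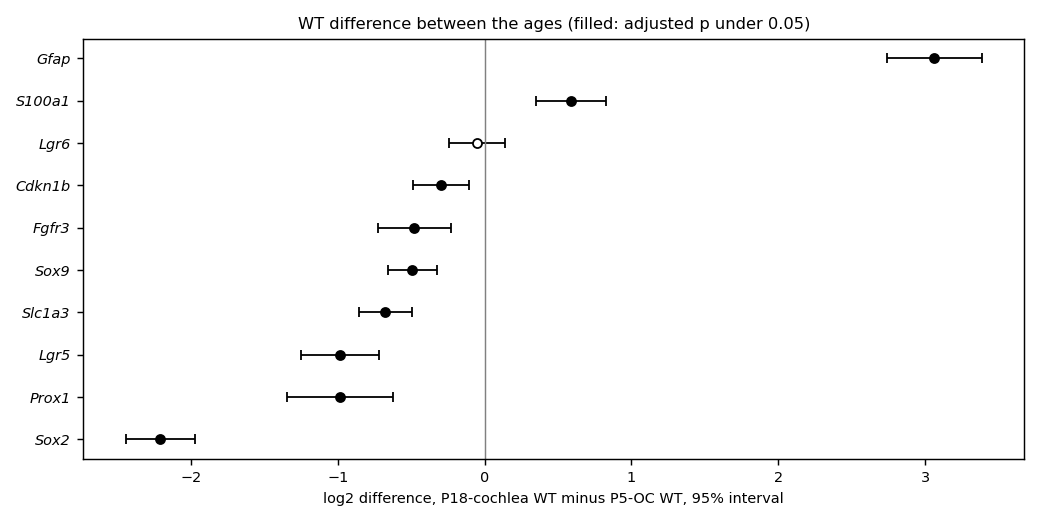
Log2 difference of P18-cochlea WT minus P5-OC WT (x axis) with 95% intervals for the 10 genes, ordered by size; filled points passed an adjusted p of 0.05. Sox2 lies lowest at -2.21 and Gfap highest at 3.06, and Lgr6 is the one open point.

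Relatives of the members were counted in the same comparison. Of the 128 further genes, 52 were lower and 33 higher at P18, beside 30.2% and 19.8% of all probesets. Jag1 fell by 2.46 on the log2 scale (adjusted p = 1e-06) and Notch1 by 1.03, while Hes1 was not called (0.05, adjusted p = 0.80). Among the FGF receptors Fgfr1 and Fgfr2 rose by 0.56 and 0.41 where Fgfr3 fell, and S100b rose by 1.70 with S100a1. Of 16 S100 genes 8 were higher at P18 and 0 lower. Cdkn1c fell by 1.13 beside Cdkn1b, Lgr4 fell by 0.41, and Fabp7 fell by 2.63. Of the other supporting cell genes 14 of 22 were lower and 4 higher (list mean 9.56 to 9.75 at P5 and 8.80 to 8.82 at P18), and of 22 hair cell markers 17 were lower and 1 higher (7.33 to 7.64 and 6.74 to 6.77). Other marker lists held calls in both directions in the P18 WT cochlea. Of 8 granule cell genes 6 were higher and 1 lower, of 11 muscle genes 7 and 1, of 11 neuronal genes 6 and 2, of 10 astrocyte genes 4 and 3, of 14 cartilage genes 4 and 6, and of 13 Schwann cell genes 2 and 8. Whether cell composition had a part in the members' differences was not tested.

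The promoters of the gene with the largest fall and of the gene with the largest rise are shown because they differ in CpG content (the letters CG, the same on both strands, here in capitals). Each runs from 250 bases before to 50 bases after a RefSeq start site (GRCm38.p6). RefSeq windows were at hand for 8 of 10 members (10 windows).
Sox2, chr3:34649745-34650044, plus strand: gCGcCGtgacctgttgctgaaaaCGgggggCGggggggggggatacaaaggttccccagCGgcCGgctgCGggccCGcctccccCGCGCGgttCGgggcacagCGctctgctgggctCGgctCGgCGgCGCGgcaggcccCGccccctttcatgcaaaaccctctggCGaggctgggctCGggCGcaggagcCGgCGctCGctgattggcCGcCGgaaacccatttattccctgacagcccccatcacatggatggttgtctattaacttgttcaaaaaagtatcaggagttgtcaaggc
Gfap, chr11:102897151-102897450, minus strand: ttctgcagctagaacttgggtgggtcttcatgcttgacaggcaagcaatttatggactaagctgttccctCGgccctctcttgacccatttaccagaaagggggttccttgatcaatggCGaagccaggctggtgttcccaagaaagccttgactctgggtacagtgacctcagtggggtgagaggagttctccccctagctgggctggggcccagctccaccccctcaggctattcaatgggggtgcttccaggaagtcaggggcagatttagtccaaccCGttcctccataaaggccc
The Sox2 window holds 27 CG and the Gfap window 3. Over all 32851 windows of that length the median was 7, 94.6% held at least 1, 15.5% held at least 27 and 31.4% held at most 3. Among the other members the count was 30 for Cdkn1b, 24 for Lgr6, 26 and 30 for the starts of Fgfr3, 25 and 14 for those of Prox1, and 11 for S100a1. Slc1a3, which fell in WT, had 3, the same as Gfap, so that a CpG-poor window went with both directions. These counts describe the sequence and nothing here measured the promoters.

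Within P5 the members did not spread alike over the arrays. Lgr5 on replicates 1 and 2 of both genotypes (9.96 to 10.23) lay wholly above replicates 3 to 5 (9.49 to 9.82), by 0.35 in Tg/Tg and 0.34 in WT. It was the only member of the 10 without overlap between those replicates, against 4.92% of probesets. Prox1 was lower on replicates 1 and 2, by a difference of -0.33 in Tg/Tg and -0.56 in WT, and so were Sox2 (-0.35 and -0.17) and Fgfr3 (-0.31 and -0.14), with overlap. Of the 17 gene lists 5 did not overlap between the same arrays. Some of these lists share genes, so they are not separate observations: Jag1 is in the reporter-tested, Notch pathway and other supporting cell lists. The other supporting cell genes (9.56 to 9.59 against 9.64 to 9.81), the hair cell markers (7.33 to 7.47 against 7.51 to 7.67), the Notch pathway (7.93 to 8.07 against 8.15 to 8.30) and the reporter-tested genes (9.20 to 9.48 against 9.64 to 9.87) were lower on replicates 1 and 2, and the cartilage markers (8.98 to 9.09 against 8.67 to 8.86) were higher, as Lgr5 was. With those replicates as a term in the fit, added after seeing the data, no member was called at P5. The smallest adjusted p was that of Cdkn1b (-0.24, adjusted p = 0.148), followed by Prox1 (-0.31, adjusted p = 0.157) and Fgfr3 (-0.24, adjusted p = 0.19).

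**Figure D5:**
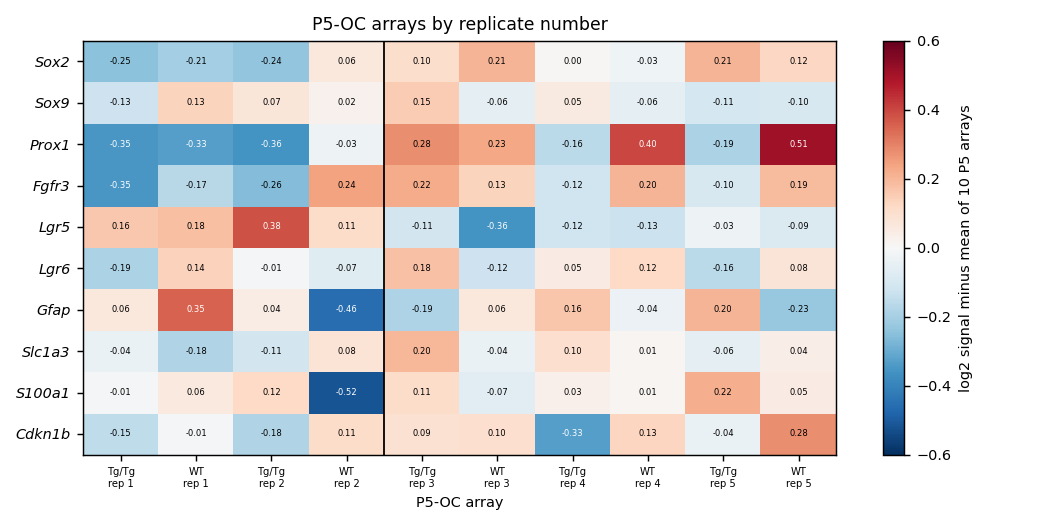
Log2 signal of the 10 genes (rows) on the 10 P5-OC arrays (columns, by replicate number, Tg/Tg and WT side by side), as the difference from the mean of those arrays, in colour and as a number. Left of the line (replicates 1 and 2) Lgr5 is above its mean on all 4 arrays, and the isolated dark cell of S100a1 is WT replicate 2.

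After each array was centred on its age, the genes most like Sox2 over the 16 arrays, of 9967 genes in the brighter part of the array, were Lrrtm4 (Pearson r = 0.93), Muc15 (0.90), Rspry1 (0.90), Glod4 (0.89) and Sptssa (0.89). Least like it were Tnk2 (-0.89), Nrgn (-0.84), Rtn4rl1 (-0.84), Fam214b (-0.84) and Rbm15b (-0.82). Among the members Slc1a3 (0.61), Prox1 (0.58) and Cdkn1b (0.50) had the highest values, and those of Lgr5 (-0.19) and Gfap (-0.27, outside the ranked genes) were weakly negative. These correlations describe 16 arrays that share their groups and processing.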

How the data were processed

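Total RNA was hybridised to Affymetrix MoGene 1.0 arrays. The deposited values are log2 signals of 34760 probesets on 16 arrays (2.09 to 13.72), made by the authors; background correction and summary method are not given in the sources used here, and the number of arrays limits the precision. Groups were taken from the titles, since the characteristics contradict them. No pair of arrays held identical values. The platform table gave 21640 probesets 1 symbol, 1321 several and 11799 none.

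The 4 group means were fitted to all probesets with limma 3.58.1 in R 4.3.3 (moderated tests with 12 residual degrees of freedom and a prior of 3.23) and no block. The authors also used limma, in a block design on annotated probesets. Tests were two-sided with Benjamini-Hochberg adjustment over all probesets, called at 0.05, and intervals are 95%. The fit was tested on simulated data. Members and lists were chosen with earlier results of these data known, and partners are named by a rule (the reporter-tested genes, close relatives of members, and called list genes, at most 4 a list). Alternatives were the replicate block, separate fits per age, removal of the dimmest 50%, single-symbol probesets, repeated quantile normalization, trend and robust variance, array weights, a Y-linked covariate, the mean of probesets, a 1.5-fold limit and leaving out each array. Replicate numbers were not taken as pairs, since deviations of same-numbered P5 arrays correlated from -0.22 to 0.36. Coordinates are GRCm38.p6 (RefSeq).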

Additional observations from a re-analysis of the deposited data

Results flagged for a closer look

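In 20 groups of 5 arrays (10 genes, 2 genotypes at P5), 2 held an array far from the others, and chance alone gives about 5% of groups. Fgfr3 stood at 9.07 on WT replicate 1, below the other WT arrays by 0.73 of the group's range. S100a1 stood at 10.99 on WT replicate 2, below the others by 0.78 of the range.

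By the test of the difference itself, the genotype effect at P18 lay above that at P5 for 10 of 13 Schwann cell genes, 11 of 11 muscle genes, 1 of 10 astrocyte genes and 1 of 14 cartilage genes, and below it for 3 of 8 granule cell genes. Among the Schwann cell genes the difference was 4.48 for Pmp2, 2.38 for Mag, 2.36 for Cldn19, a myelin tight junction gene, and 1.06 for Cnp. Among the muscle genes it was 3.66 for Myl1, 3.48 for Myh1, 3.39 for Atp2a1 and 1.77 for Neb. It was 0.83 for Fabp7 and 0.69 for Col10a1. The 3 granule cell genes were Neurod1 (-1.90), Gabra6 (-1.77) and Cbln3 (-1.12). The Schwann, muscle and granule cell lists hold genes that the paper reported as changed on these same arrays, so their counts are a description.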

How the results depend on the processing

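The fits changed no sign of a called difference. Of the 270 member values at each age, 265 at P5 and 267 at P18 kept their side of the threshold, and so did 257 of 260 for the change of effect and 256 of 260 for the WT comparison. With array weights the count of members called was 3 at P5, 2 at P18 and 3 for the change of effect, and with separate fits per age it was 1 at P18. Leaving out each array gave 0 to 2 calls at P5, where the 2 came without Tg/Tg replicate 3, 0 at P18, 0 for the change of effect and 9 in the WT comparison. The cause of these moves was not tested. The 1.5-fold limit left 6 of 9 calls in the WT comparison, without Sox9, Fgfr3 and Cdkn1b by its construction.

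With the replicate block 0 members were called at P5, 0 at P18, 0 for the change of effect and 9 in the WT comparison. Same-numbered arrays correlated in their deviations from -0.22 to 0.36 at P5 and from 0.00 to 0.07 at P18, and the block moved the calls over all probesets from 212 to 139 at P5 and from 154 to 95 at P18.

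Over all probesets, calls at P5 went from 212 to 1715 with array weights, to 2907 without Tg/Tg replicate 3 and to 594 without WT replicate 1, and at P18 from 154 to 2179 with array weights and to 475 with separate fits. The count of arrays limits these tests: intervals of the members spanned at least 0.15 to either side at P5 and 0.19 at P18.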
